A study of Mus musculus with 24 samples.

Results

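Circular RNAs of 10 extracellular matrix genes were read out in mouse cardiac fibroblasts after pressure overload of the heart. A circular RNA, here also called a circle, arises when the end of a downstream exon is spliced back to the start of an upstream exon, and sequencing reads across that back-splice junction count it. The hosts were Svep1, Lama2, Lamc1, Nid1, Hspg2, Fbn1, Ltbp1, Fbln1, Efemp1 and Dcn. All circles of the authors' table were taken whose junction ends both lay on exon edges of one of these genes on the same strand. This gave 14 of the 1717 circles of the table: 7 hosts had 1 circle each, Svep1 and Hspg2 had 2 each, and Ltbp1 had 3.

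The cells came from hearts of male C57BL/6J mice operated on at 8 weeks of age. Transverse aortic constriction (TAC), a narrowing of the aorta by a suture that raises the pressure against which the left ventricle pumps, was set against a sham operation without the ligation. Hearts were taken after 1 week (4 TAC and 4 sham libraries), 4 weeks (4 TAC and 5 sham libraries) or 8 weeks (3 TAC and 4 sham libraries). Fibroblasts were obtained by Langendorff perfusion, and no sort on a marker is named in the sources used here. The labels do not tie the libraries of a group to separate animals, and the spread behind each p-value is that between libraries, some of which may be technical.

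The extracellular matrix of the heart is largely made by its fibroblasts, and it is rebuilt when the ventricle works against a raised load. Basement membranes around cardiomyocytes and vessels are sheets of laminin and type IV collagen joined by nidogens and the proteoglycan perlecan. Microfibrils of fibrillin carry elastic fibres with their fibulins, and they hold latent TGF-beta, the main fibrogenic growth factor, through its binding proteins. Circular RNAs lack free ends and are not made into these proteins by the usual route, so the level of a circle is not the level of its host's messenger RNA or protein.

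The junctions themselves show what was counted. Each line below joins the last 25 bases of the downstream exon, in lower case, to the first 25 bases of the upstream exon, in capitals, as read from GENCODE transcripts of build mm10. The Svep1 and Ltbp1 lines at exons 2 to 3 are the most read circles of the 14, each followed by a scarcer circle of the same host, the Nid1 and Efemp1 lines are circles with low counts in TAC libraries of 1 week, and the Hspg2 lines are a pair that shares its start.
Svep1 exons 2 to 3: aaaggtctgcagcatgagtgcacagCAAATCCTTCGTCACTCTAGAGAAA
Svep1 exons 18 to 21: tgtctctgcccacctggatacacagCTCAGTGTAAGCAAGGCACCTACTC
Ltbp1 exons 2 to 3: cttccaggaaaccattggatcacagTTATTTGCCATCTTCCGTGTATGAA
Ltbp1 exon 3: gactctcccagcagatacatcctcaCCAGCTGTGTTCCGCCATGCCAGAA
Nid1 exons 4 to 7: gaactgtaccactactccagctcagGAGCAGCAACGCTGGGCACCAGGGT
Efemp1 exons 3 to 4: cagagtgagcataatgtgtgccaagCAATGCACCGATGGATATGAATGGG
Hspg2 exons 34 to 36: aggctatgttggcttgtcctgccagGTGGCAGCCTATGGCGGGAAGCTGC
Hspg2 exons 34 to 37: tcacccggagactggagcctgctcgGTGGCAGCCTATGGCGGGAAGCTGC
The Hspg2 pair has the same capitals, because both circles start at exon 34, and differs in the exon that is joined to it.

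Across the table, a library held between 3595 and 9146 junction reads, and the median circle had 2 reads in a library. The 4 TAC libraries at 4 weeks (6846 to 9146 reads) were all deeper than the 5 sham libraries at 4 weeks (3618 to 6524 reads), while depths overlapped at the other weeks. Values below are either junction reads or normalized junction reads, in which 1 read was worth 0.642 to 1.57, so that a value near 1 rests on a single read. Of 25 resting fibroblast markers, 7 had a circle in the table, 4 of them hosts described here (Dcn, Fbln1, Fbn1 and Lama2), and no circle of Pdgfra, Tcf21 or Col1a1 was listed, so the fibroblast label could be checked only weakly. These 7 markers had 9 circles, 5 of them not among the 14. Summed, the 9 had 7.69 to 16.3 normalized reads in TAC and 4.51 to 15.1 in sham at 1 week. At 4 weeks the sums were 3.63 to 16.1 in TAC and 5.61 to 15.7 in sham, and at 8 weeks 11.1 to 16.4 in TAC and 4.81 to 10.6 in sham. Circles of 9 of 43 cardiomyocyte markers were also read. Their summed level was 30.2 to 38.4 normalized reads in TAC and 45.5 to 142.8 in sham at 1 week, 23.96 to 46.3 in TAC and 43.3 to 134.5 in sham at 4 weeks, and 47.2 to 61.3 in TAC and 61.6 to 128.8 in sham at 8 weeks.

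The matrix gene circles were scarce. Together they had 780 reads, 0.562% of all junction reads, and 2 of the 14, those of Svep1 exons 2 to 3 and Ltbp1 exons 2 to 3, had a read in all 24 libraries. No read was found in 26.2% of their values, against 20.7% over all circles, and 85.7% of their values were below 5 reads. Their median level over the 24 libraries was 1.55 normalized reads, against 1.80 over all circles, and 5 of the 14 lay above that second value. In order of their mean over all libraries, Svep1 exons 2 to 3 stood first with 8.54 ± 4.58 normalized reads (SD, n = 24), followed by Ltbp1 exons 2 to 3 with 4.68 ± 2.02. Lamc1 exons 17 to 18 had 2.90, and the other 11 lay between 1.10 (Fbln1) and 1.96 (Hspg2 exons 34 to 37). In that order no neighbouring means differed by more than the larger of their SDs.

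The circles that could be placed in a transcript were internal, with a median spliced length close to that over all circles. For 13 of the 14, 1 annotated transcript held both ends, and all 13 consisted of coding exons alone, against 82.3% of the 1657 circles of the table that could be placed the same way. They held 1 to 6 exons (median 3, as over all circles) and 292 to 980 spliced nucleotides (median 436, against 420 over all circles). A start at exon 2, where many circles begin, was seen in 3 of the 13 (23.1%), those of Svep1, Ltbp1 and Fbn1, against 36.03% over all circles. Their flanking introns had a median of 6154 bp upstream and 6576 bp downstream, against 10933 and 9861 bp over all circles. In 4 of the 13 (30.8%) the spliced length was a multiple of 3, against 35.5% over all circles. These are descriptions without a test.

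**Figure D1:**
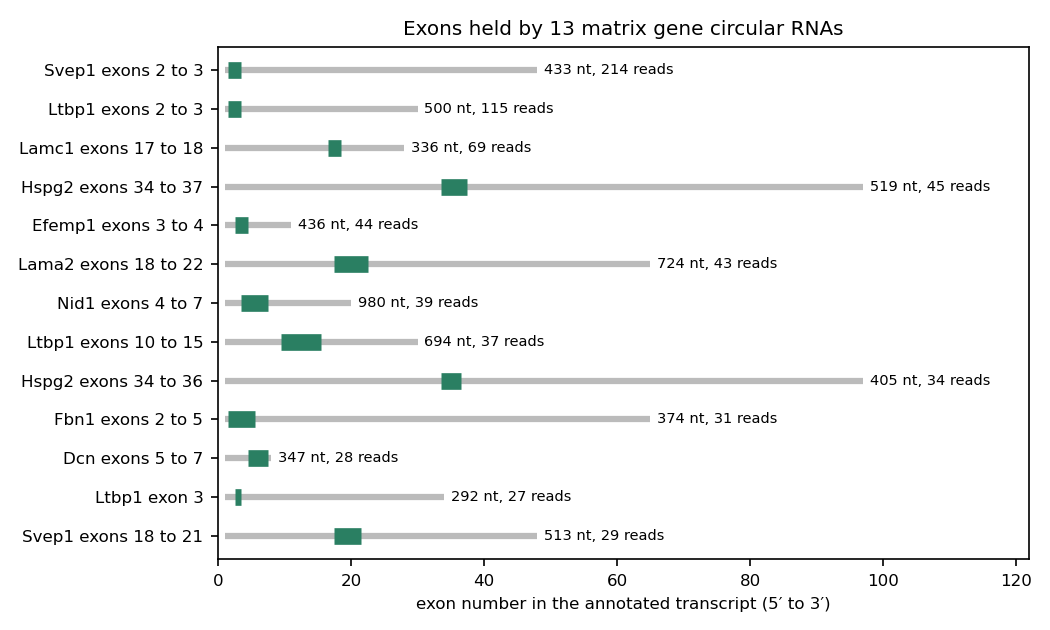
Position of 13 matrix gene circles in their annotated transcripts: grey lines span the exons of each transcript from first to last, green blocks mark the exons in the circle, and the text gives spliced length and reads summed over 24 libraries. The circles hold 1 to 6 exons, and the most read one, of Svep1, has 214 reads and lies at exons 2 to 3 of 48.

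Svep1 encodes a very large secreted adhesion glycoprotein built mostly of complement control (sushi) repeats. Its main circle joins exons 2 and 3 of 48 (mm10, chr4:58175931-58179707, minus strand), holds 433 coding nucleotides and covers codons 179 to 323 of 3567. It had the highest mean of the group and ranked 118 of 1717 by mean level, with 214 reads in all. Averaged over the 3 weeks, this circle was higher in TAC libraries at an adjusted p under 0.05 by limma, the only one of the 14 to pass. The averaged estimate was positive for 6 of the 14.

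At 1 week the circle of Svep1 exons 2 to 3 had 16.9, 15.3, 16.0 and 7.78 normalized reads in TAC libraries, against 6.28, 3.74, 3.00 and 5.17 in sham libraries. Every TAC library was above every sham library. The log2 fold change was 1.51 ± 0.52 (SE), with an adjusted p of 0.126 by limma, so it was not called. At 4 weeks it had 11.0, 9.54, 13.8 and 12.8 normalized reads in TAC libraries, against 5.61, 1.57, 7.81, 6.11 and 8.29 in sham libraries. The groups again did not overlap, and the log2 fold change was 1.09 ± 0.49, with an adjusted p of 0.539 by limma. The deeper TAC libraries of that week gave 65 reads in 4 libraries and the sham libraries 31 reads in 5, and the part of depth in the difference was not tested beyond the normalization. At 8 weeks the TAC libraries had 15.6, 9.20 and 6.86 normalized reads and the sham libraries 1.06, 5.50, 9.62 and 6.36. There 1 sham library lay above 2 of the TAC libraries, and the log2 fold change was 1.05 ± 0.56 (adjusted p 0.81 by limma).

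Averaged over the 3 weeks with equal weight, the Svep1 circle was 2.32-fold higher in TAC, a log2 fold change of 1.22 ± 0.30 with an adjusted p of 0.0124 by limma. All 11 TAC libraries were above the sham mean of their week, which was so for 0.233% of all circles. The call was lost without sham replicate 1 of 8 weeks (log2 fold change 1.03, adjusted p 0.0889 by limma), the library with the lowest value, and without TAC replicate 1 of 8 weeks (1.11, 0.0931). It was also lost with a pseudocount of 0.1 (1.31, 0.0695). The TAC effect did not pass a test of difference between weeks, with estimates of -0.42 ± 0.71 for 4 against 1 week and -0.46 ± 0.76 for 8 against 1 week on the log2 scale (adjusted p 0.931 and 0.925 by limma). The summed cardiomyocyte circles ran the other way in the same libraries, and their part in the Svep1 difference was not tested. In RNA of whole cell preparations, fewer cells of a type and less RNA per cell cannot be told apart.

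The other Svep1 circle joins exons 18 to 21 (chr4:58106295-58111460), downstream of the first, and was read 29 times in all. It had 1, 0, 2 and 3 reads in TAC libraries and 2, 1, 0 and 0 reads in sham libraries at 1 week. At 4 weeks it had 2, 4, 1 and 2 reads in TAC libraries, against 1 read in 1 of the 5 sham libraries and 0 in the rest. The log2 fold change at 4 weeks was 1.71 ± 0.77 (adjusted p 0.539 by limma), and the groups overlapped once reads were normalized (0.726 in the lowest TAC library, 0.921 in the highest sham library). At 8 weeks it had 2, 3 and 0 reads in TAC libraries and 0, 1, 4 and 0 reads in sham libraries. Averaged over weeks its log2 fold change was 0.99 ± 0.47 (adjusted p 0.45 by limma), and 9 of 11 TAC libraries were above the sham mean of their week. Exons 2 to 3 gave 89.5% of the Svep1 junction reads in TAC and 83.3% in sham at 1 week, 87.8% in TAC and 96.9% in sham at 4 weeks, and 85.7% in TAC and 81.5% in sham at 8 weeks. The other circle never had more than 9 reads in a group, so these shares rest on few reads.

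**Figure D2:**
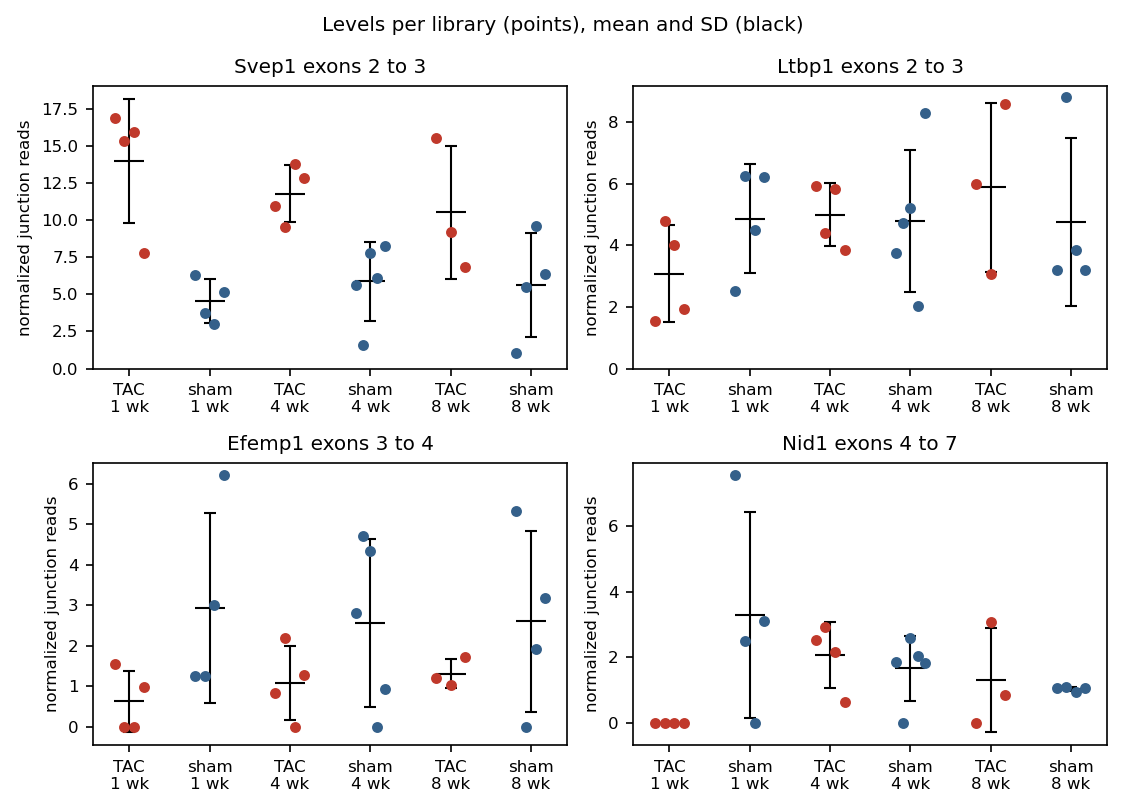
Normalized junction reads of 4 circles in every library (points; red TAC, blue sham) with the group mean and SD (black), by week. The Svep1 circle averages 14 in TAC and 4.55 in sham at 1 week without overlap, while Nid1 is at 0 in all 4 TAC libraries of 1 week.

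Among the basement membrane genes, Lamc1 encodes the gamma 1 chain of most laminins. Its circle of exons 17 to 18 (chr1:153239255-153240495, minus strand) had 5, 2, 1 and 2 reads in TAC and 4, 2, 1 and 1 in sham libraries at 1 week. It had 5, 2, 5 and 3 reads in TAC and 3, 0, 4, 4 and 4 in sham libraries at 4 weeks, and 2, 3 and 3 in TAC and 3, 5, 3 and 2 in sham libraries at 8 weeks. The groups overlapped at every week, with normalized means of 3.14 ± 3.07 in TAC and 2.51 ± 1.78 in sham at 1 week (SD, n = 4 each). Averaged over weeks the log2 fold change was 0.04, with a 95% interval from -0.757 to 0.842.

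Nid1 encodes nidogen-1, which links laminin to type IV collagen. Its circle of exons 4 to 7 (chr13:13468231-13478338, plus strand), the longest of the 13 placed circles at 980 nucleotides, was not read in any of the 4 TAC libraries at 1 week, against 6, 2, 0 and 3 reads in the sham libraries. The sham mean of 3.28 ± 3.14 normalized reads (SD, n = 4) was 3.92-fold above a floor of 3 reads over the TAC group. That floor covers counting error only, and the ratio leaves out the spread of the sham libraries. The groups touched at 0, where sham replicate 3 lay. The log2 fold change of -2.36 ± 0.81 was not called (adjusted p 0.126 by limma). It was called without that sham library (-3.15, adjusted p 0.0259). At the later weeks the circle was read in both groups: 3, 4, 3 and 1 reads in TAC and 2, 0, 3, 2 and 2 in sham libraries at 4 weeks, and 0, 3 and 1 in TAC and 1 in each sham library at 8 weeks. The difference between the TAC effects at 4 and at 1 week was 2.72 ± 1.11 on the log2 scale, with an unadjusted p of 0.0149 and an adjusted p of 0.56 by limma.

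Hspg2 encodes perlecan, the large heparan sulfate proteoglycan of basement membranes, and its pair of circles starts at the same exon edge (chr4:137528805-137529573 and chr4:137528805-137531737, plus strand). The longer circle, with exons 34 to 37, had 45 reads in all and the shorter, without exon 37, had 34. At 1 week the longer circle had 2, 2, 0 and 2 reads in TAC and 4, 3, 2 and 1 in sham libraries, at 4 weeks 3, 3, 1 and 1 in TAC and 2, 0, 2, 5 and 3 in sham libraries, and at 8 weeks 2, 1 and 0 in TAC and 0, 2, 2 and 2 in sham libraries. Its mean was lower in TAC at each week, with overlapping groups, and the averaged log2 fold change of -0.51 ± 0.46 did not pass (adjusted p 0.761 by limma). The shorter circle had 0 to 6 reads per TAC library and 0 to 3 per sham library, and its averaged log2 fold change was 0.42 ± 0.47 (adjusted p 0.831). Whether the pair differed from each other in their response was not tested. Summed, the pair averaged 4.50 ± 3.25 normalized reads in TAC and 4.84 ± 1.93 in sham at 1 week, 3.50 ± 3.18 in TAC and 3.58 ± 2.43 in sham at 4 weeks, and 1.76 ± 0.81 in TAC and 1.80 ± 1.25 in sham at 8 weeks.

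Lama2 encodes the alpha 2 chain of the laminin that surrounds muscle cells. The Lama2 circle of exons 18 to 22 (chr10:27197298-27224069, minus strand) had 0, 2, 1 and 0 reads in TAC and 1, 0, 1 and 0 in sham libraries at 1 week. It had 4, 5, 1 and 2 reads in TAC and 5, 1, 2, 2 and 3 in sham libraries at 4 weeks, and 1, 2 and 2 in TAC and 3, 4, 0 and 1 in sham libraries at 8 weeks. TAC and sham overlapped at each week, while the normalized mean at 4 weeks (2.26 in TAC and 2.56 in sham) lay above that at 1 week (0.729 in TAC and 0.69 in sham). In sham libraries the log2 fold change of 4 weeks over 1 week was 1.57 ± 0.75, with an unadjusted p of 0.0372 and an adjusted p of 0.586 by limma.

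Among the genes of microfibrils and elastic fibres, Ltbp1 encodes a protein that anchors latent TGF-beta to fibrillin. Its circle of exons 2 to 3 of the shorter isoform (chr17:75225156-75227241, plus strand; 500 coding nucleotides, in 5 of 6 coding transcripts) was the other circle read in every library. It had 1.54, 4.79, 3.99 and 1.95 normalized reads in TAC and 2.51, 6.23, 4.51 and 6.20 in sham libraries at 1 week. At 4 weeks it had 5.92, 4.40, 5.81 and 3.85 in TAC and 3.74, 4.71, 5.21, 2.04 and 8.29 in sham libraries, and at 8 weeks 5.99, 3.06 and 8.57 in TAC and 3.19, 8.80, 3.85 and 3.18 in sham libraries. The groups overlapped at each week. Averaged, the log2 fold change was -0.06 ± 0.35, with a 95% interval from -0.754 to 0.628, which holds changes in either direction.

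A single-exon circle of Ltbp1, exon 3 of the long isoform (chr17:75065911-75066202, plus strand; 292 nucleotides), lies in 2 of the 6 coding transcripts and not in the shorter isoform. It had 2, 0, 0 and 0 reads in TAC and 1, 3, 0 and 3 in sham libraries at 1 week, 0, 0, 1 and 1 in TAC and 0, 0, 0, 1 and 3 in sham libraries at 4 weeks, and 0, 0 and 1 in TAC and 0, 0, 4 and 7 in sham libraries at 8 weeks. In total that is 5 reads in 11 TAC libraries and 22 in 13 sham libraries, 11 of them from 2 sham libraries of 8 weeks. The log2 fold change was -1.30 ± 0.87 at 8 weeks (adjusted p 0.867 by limma) and -0.92 ± 0.47 averaged over weeks (unadjusted p 0.0497, adjusted p 0.501). The third Ltbp1 circle, exons 10 to 15, had 0 to 4 reads per TAC library and 0 to 8 per sham library, with an averaged log2 fold change of 0.04 ± 0.48.

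Efemp1 encodes fibulin-3, a secreted protein of elastic tissue. The circle of Efemp1 exons 3 to 4 (chr11:28867466-28868039, plus strand; 436 nucleotides) had 1, 0, 0 and 1 reads in TAC and 1, 1, 2 and 6 in sham libraries at 1 week. It had 1, 3, 0 and 2 reads in TAC and 3, 3, 5, 0 and 1 in sham libraries at 4 weeks, and 1, 1 and 2 in TAC and 5, 0, 2 and 3 in sham libraries at 8 weeks. The normalized means were 0.628 ± 0.761 in TAC and 2.93 ± 2.33 in sham at 1 week (n = 4 each), 1.08 ± 0.92 in TAC and 2.56 ± 2.07 in sham at 4 weeks (n = 4 and 5), and 1.31 ± 0.36 in TAC and 2.61 ± 2.23 in sham at 8 weeks (n = 3 and 4; SD). All 11 TAC libraries lay below the sham mean of their week, as for 1.4% of all circles, while single sham libraries reached down to 0 at 4 and 8 weeks. The log2 fold change was -1.65 ± 0.79 at 1 week (adjusted p 0.381 by limma), -0.75 ± 0.75 at 4 weeks (0.885) and -0.91 ± 0.46 averaged (unadjusted p 0.0494, adjusted p 0.501).

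Fbn1 encodes fibrillin-1, the backbone of microfibrils. Its circle of exons 2 to 5 (chr2:125466603-125479272, minus strand) had 3, 1, 1 and 1 reads in TAC and 2, 2, 0 and 2 in sham libraries at 1 week, and 1, 0, 1 and 1 in TAC and 1, 1, 0, 0 and 2 in sham libraries at 4 weeks. At 8 weeks it had 2, 4 and 1 reads in TAC and 0, 0, 5 and 0 in sham libraries, so that 1 sham library held the highest count. The log2 fold change at 8 weeks was 1.54 ± 0.88 (adjusted p 0.81 by limma). Fbln1 encodes fibulin-1 of basement membranes and elastic fibres, and its junction joins edges of different isoforms: the start is that of exon 15 of 1 isoform and the end that of exon 16 of another (chr15:85251445-85265381, plus strand). No annotated transcript holds both edges, so the exons inside this circle are not known. It had 0, 0, 1 and 0 reads in TAC and 0, 1, 3 and 0 in sham libraries at 1 week, 0, 0, 5 and 1 in TAC and 0, 3, 1, 3 and 0 in sham libraries at 4 weeks, and 0, 0 and 3 in TAC and 0, 0, 1 and 3 in sham libraries at 8 weeks. With reads in only 4 of 11 TAC and 7 of 13 sham libraries, no TAC difference was called. The averaged log2 fold change was -0.53 ± 0.47 (adjusted p 0.758 by limma), and the smallest change detectable at this depth was not computed.

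Dcn encodes decorin, a small leucine-rich proteoglycan that binds collagen fibrils and TGF-beta. The decorin gene's circle of exons 5 to 7 (chr10:97507703-97513737, plus strand) had 1, 0, 2 and 0 reads in TAC and 3, 1, 0 and 3 in sham libraries at 1 week, 0, 4, 0 and 1 in TAC and 2, 2, 2, 0 and 1 in sham libraries at 4 weeks, and 1, 1 and 2 in TAC and 0, 2, 0 and 0 in sham libraries at 8 weeks. The groups overlapped at each week, and the averaged log2 fold change was -0.13 ± 0.47 (adjusted p 0.976 by limma).

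**Figure D3:**
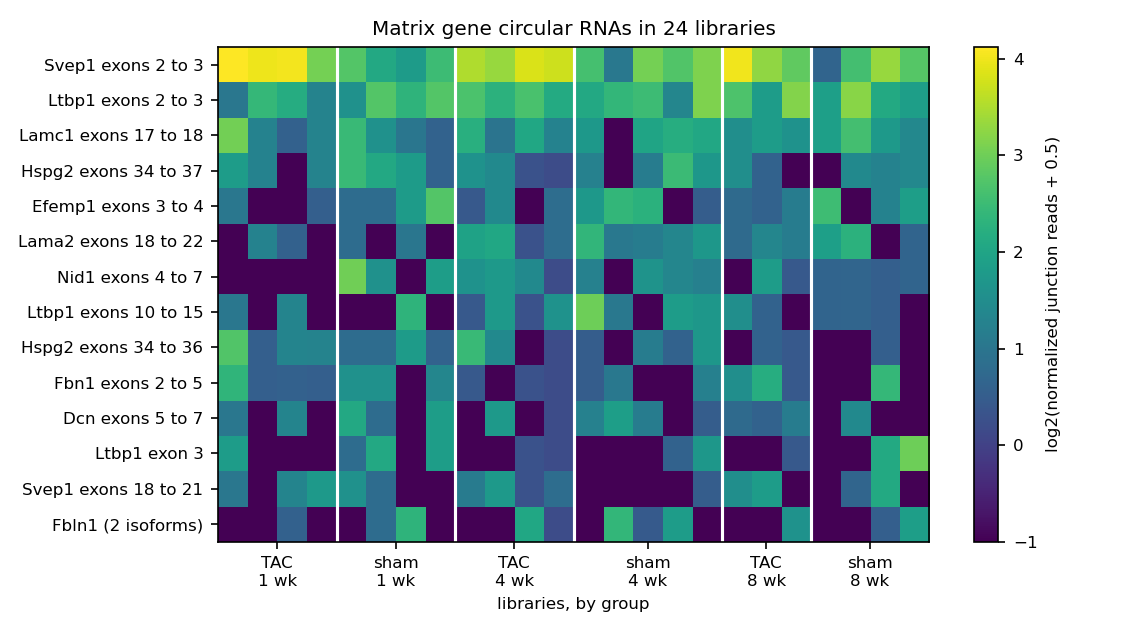
Level of the 14 circles (rows, by mean level) in 24 libraries (columns, by group), as log2(normalized junction reads + 0.5), with no reads in the darkest colour. The Svep1 circle of exons 2 to 3 stands out in TAC libraries, and 26.2% of the cells hold no read.

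Read together, the 14 circles did not move in 1 direction. At 1 week limma called 0 of them (1.46% of all circles were called, 0.757% higher and 0.699% lower), while 3 reached an unadjusted p under 0.05 (11.7% of all circles). At 4 weeks it called 0 (0.116% of all circles), with 2 at an unadjusted p under 0.05 (7.98%). At 8 weeks it called 0 (0% of all circles), with 0 at an unadjusted p under 0.05 (6.06%). Averaged over weeks it called 1, Svep1 exons 2 to 3 (0.641% of all circles, 0.349% higher and 0.291% lower), while 4 reached an unadjusted p under 0.05 (9.9%), Svep1 with both circles higher and Efemp1 and Ltbp1 exon 3 lower. The limma-voom test on whole reads gave the same member counts of 0, 0, 0 and 1. Over all circles it called 14, 7, 0 and 20 in these comparisons. TAC was above sham without overlap for 1 of the 14 at 1 week (2.21% of all circles) and 1 at 4 weeks (2.33%), both times Svep1 exons 2 to 3, and for 0 at 8 weeks (3.09%). It was below sham without overlap for 0 of the 14 at 1, 4 and 8 weeks (3.03%, 1.22% and 3.03% of all circles).

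The median log2 fold change of the 14 was -0.31 at 1 week (0.04 over all circles), -0.21 at 4 weeks (0.12 over all circles), 0.15 at 8 weeks (0.03 over all circles) and -0.05 averaged (0.06 over all circles). The sign of 3 of these medians turned under other settings: the averaged one was 0.00037 with TMM scaling and 0.02 with a pseudocount of 0.1, and with the replicate number as a block the medians were 0.15 at 4 weeks and -0.01 at 8 weeks. Summed, the 14 circles had 32.4 ± 12.2 normalized reads in TAC and 33.0 ± 5.03 in sham at 1 week, 34.8 ± 4.202 in TAC and 31.9 ± 6.27 in sham at 4 weeks, and 33.0 ± 3.99 in TAC and 29.1 ± 7.86 in sham at 8 weeks. Without the Svep1 pair the sums were 16.7 ± 9.51 in TAC and 27.5 ± 2.65 in sham at 1 week, 21.4 ± 5.09 in TAC and 25.8 ± 4.07 in sham at 4 weeks, and 20.6 ± 1.58 in TAC and 22.2 ± 3.58 in sham at 8 weeks (SD). At 1 week 3 of 4 TAC libraries had lower such sums than every sham library, and the highest TAC library, at 30.8, lay within the sham range of 25.5 to 31.4. These sums are a description, given after the Svep1 values were known. At 1 week the summed cell cycle circles also differed, with 21.0 to 43.1 normalized reads in TAC and 4.14 to 11.3 in sham libraries. At 4 weeks the cell cycle sums were 1.93 to 10.3 in TAC and 6.45 to 14.1 in sham, and at 8 weeks 10.2 to 16.3 in TAC and 4.4 to 8.485 in sham. They are 4 circles from 2 of 29 listed genes, Bub1b and Cdkn3, and their part in the sums of matrix gene circles was not tested. The summed endothelial, mural and leukocyte circles overlapped between TAC and sham at 1 week.

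**Figure D4:**
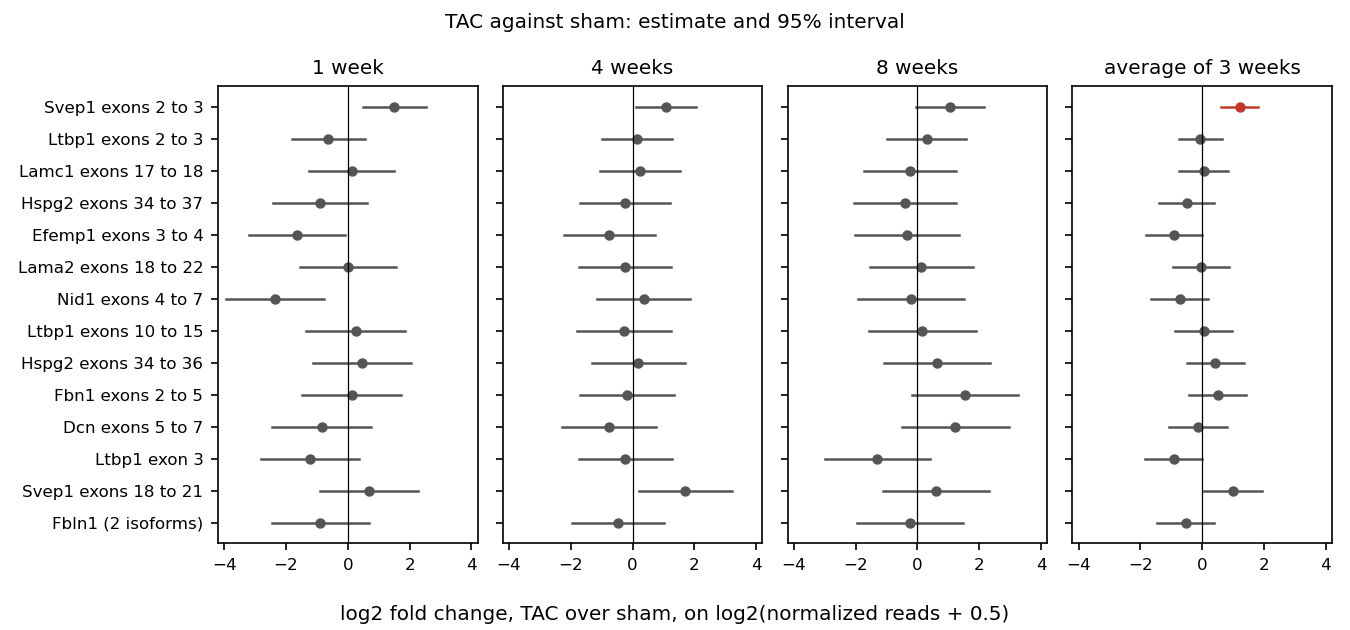
Log2 fold change of TAC over sham with its 95% interval for the 14 circles at 1, 4 and 8 weeks and averaged, on log2(normalized reads + 0.5). Red marks an adjusted p under 0.05: only Svep1 exons 2 to 3, averaged, at 1.22.

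Time itself moved no matrix gene circle past the threshold in sham libraries. Limma called 0 of 14 for 4 against 1 week (0% of all circles), 0 for 8 against 1 week (0.116%) and 0 for 8 against 4 weeks (0%). An unadjusted p under 0.05 was reached by 1 circle in the first comparison (7.57% of all circles), Lama2, and by 1 in the second (7.51%), Hspg2 exons 34 to 36, which had 0, 0, 1 and 0 reads at 8 weeks and 1, 1, 2 and 1 reads at 1 week (log2 fold change -1.62 ± 0.81, adjusted p 0.653). The third had 0 (6.93%). The TAC effect differed between weeks for 0 of the 14 in each of the 3 comparisons (0% of all circles in each), with 1 circle, Nid1, at an unadjusted p under 0.05 for 4 against 1 week (8.04% of all circles) and 0 in the other comparisons (8.62% for 8 against 1 week and 6.35% for 8 against 4 weeks). Limma-voom also called 0 members in these 6 comparisons. Over all circles it called 0, 1 and 0 in sham for 4 against 1, 8 against 1 and 8 against 4 weeks. For the TAC effect between the same weeks it called 0, 3 and 2.

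Of 268 other matrix genes listed, 12 had a circle in the table, 17 circles in all. None of 32 collagen genes outside basement membranes and none of 22 further proteoglycan genes had one. The only one of the 17 called was the circle of Itgbl1 exons 3 to 7, a secreted protein with integrin-like repeats. At 1 week it had 2, 2, 16 and 5 reads in TAC and 0 in each sham library (adjusted p 0.0075 by limma), and the call was lost without TAC replicate 3 (0.0763). The average was called higher too (log2 fold change 1.68 ± 0.46, adjusted p 0.0485 by limma), but leaving out any of 13 of the 24 libraries in turn ended that call, with adjusted p up to 0.275 without TAC replicate 1 of 8 weeks. The averaged call also ended with the replicate number as a block (adjusted p 0.0958 by limma) and with a pseudocount of 0.1 (0.185), and the 1-week call ended in a fit of the 1-week libraries alone (0.0569). The highest circle of each list was that of Smoc2 exons 5 to 9 (2.40 normalized reads), Ltbp4 exons 26 to 27 (3.64), Crim1 exons 3 to 4 (3.81), the metalloproteinase Mmp15 exons 2 to 3 (39.2) and the integrin Itga9 exons 2 to 4 (1.16). At 8.54, the Svep1 circle was higher than these except that of Mmp15.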

How the data were processed

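RNA was depleted of ribosomal RNA and sequenced from stranded, paired-end libraries, per the labels. FastQC, Trimmomatic, STAR and build mm10 appear in the submitters' processing notes; how circles were called and normalized is not given in the sources used. The authors deposited a normalized signal per junction: with an offset of 0.01 removed, 100% of 41208 values were whole multiples, within 0.001 read, of a step fixed for each library. Junctions were given hosts from GENCODE M21, by exon edges at both ends; junction sequences were built from its transcripts.

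The main test was limma 3.58.1 (R 4.3.3) with its trend option, on log2(normalized reads + 0.5), which understates the change of scarce circles. All 24 libraries entered 1 fit of 6 groups, with Benjamini-Hochberg adjustment over 1717 circles in each of 10 comparisons and calls at 0.05. On simulated data, 200 circles with a mean of at least 3 reads were changed by a log2 value of 2. The test recovered 35%, 43% and 33% of them at 1, 4 and 8 weeks and 92% in the average. It also called 10, 3 and 1 unchanged circles at those weeks and 11 in the average. The spread of the simulated counts was fixed, alike for every circle and not estimated from these libraries, so the rates hold for that spread only. Among the members only Svep1 exons 2 to 3 and Ltbp1 exons 2 to 3 reach that mean, so these rates do not cover the other members. Alternatives were other pseudocounts, TMM scaling, a filter, limma-voom (chosen after seeing the data), fits of single weeks, a replicate block and leaving out each library. No pair of libraries within a group was identical (largest chi-square p 0.0109). Replicate numbers, taken from the sample titles, were shared between groups. Deviations of same-numbered TAC and sham libraries correlated at 0.155 to 0.257 in the 4 pairs of 1 week, but at -0.19 to 0.257 over all 11 pairs. Other-numbered pairs of 1 week reached 0.169, and same-numbered pairs 1 and 2 of 8 weeks had 0.206 and 0.169. The numbers were taken to pair libraries at 1 week only, which these values do not settle. The main fit did not use the numbers as a block at any week, and only the fits named as having a replicate block did. In sham libraries of 4 and 8 weeks the title numbers do not match the column headers, so the block there follows the titles only.

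Genes were described by rule: the highest circle of each host, each called circle, and the 3 circles with the smallest p in each TAC comparison. The members and gene lists were chosen with earlier results of these data known.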

Additional observations from a re-analysis of the deposited data

Results flagged for a closer look

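In groups of 4 or 5 libraries, 13 of 69 tested had a single library set apart from the rest by the 95% criterion of Dixon. Its chance rate of about 1 in 20 is for continuous values. That rate is not known for low counts with many ties at 0, so the 13 cannot be read as an excess. Most of the 13 rest on a handful of reads. In TAC libraries of 1 week, replicate 1 was high for Lamc1 (7.69 normalized reads), Ltbp1 exon 3 (3.08) and Fbn1 (4.61), and replicate 3 for Fbln1 (0.998, a single read). In sham libraries of 1 week, replicate 3 was high for Ltbp1 exons 10 to 15 (4.51) and Hspg2 exons 34 to 36 (3.01). In sham libraries of 4 weeks, replicate 5 alone held a read of Svep1 exons 18 to 21 (0.921). In sham libraries of 8 weeks, replicate 2 was high for Ltbp1 exons 2 to 3 (8.80) and Dcn (2.20), and replicate 3 for Fbn1 (4.81) and Hspg2 exons 34 to 36 (0.962). In the same group, replicate 4 was low for Ltbp1 exons 10 to 15 (0) and replicate 1 for Hspg2 exons 34 to 37 (0).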

How the results depend on the processing

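Of 26 log2 fold changes recomputed, 22 kept their direction under every setting run. The 4 that did not were averages near 0: leaving out single libraries moved Lamc1 between -0.16 and 0.16, Ltbp1 exons 2 to 3 between -0.165 and 0.0601, Ltbp1 exons 10 to 15 between -0.15 and 0.32, and Dcn between -0.343 and 0.0754; limma-voom gave -0.0814 for Lamc1 and -0.0781 for Ltbp1 exons 10 to 15, and a pseudocount of 1 gave -0.0114 for the same Ltbp1 circle. The cause was not tested. The number of matrix gene circles called at 1 week was 0, and 1 with a filter on a mean of at least 5 reads (Svep1 exons 2 to 3, adjusted p 0.0442 by limma). The filter leaves 272 circles and 1 member, and 24 of the 272 were called, against 25 of 1717 without it. Leaving out single libraries, without the filter, gave 0 to 1 member calls at 1 week. In the average the number of member calls was 1, and 0 with a pseudocount of 0.1. Leaving out single libraries there gave 0 to 1. At 4 and 8 weeks it was 0 under all settings run. Leaving out single libraries moved the averaged Svep1 log2 fold change between 1.03 and 1.33. With the replicate block it was 1.28 (adjusted p 0.0133 by limma), and the block changed no member call; with the block in the 1-week libraries alone, a fit chosen after seeing the data, Svep1 had an adjusted p of 0.158 and Nid1 of 0.205. Over all circles, calls at 1 week were 25 (4 to 32 across settings), at 4 weeks 2 (0 to 14; 4 with the block) and in the average 11 (4 to 20). The planned edgeR test was not run. The deposited values are a normalized signal from which whole reads were recovered, and limma-voom on those reads stood in for it. Depth limits these values, with 85.7% of member values below 5 reads; the floor of 3 reads covers counting error only, while the intervals of log2 fold changes rest on the spread between libraries.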
